A study of Rattus norvegicus with 252 samples.

Results

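Cerebellum-enriched genes are described here in rats that model Huntington disease, an inherited disorder in which the striatum is damaged before other brain regions and the cerebellum is less affected. The members were chosen from the 40 libraries of wild-type (WT) rats of 2 months. A gene needed a mean of at least 10 counts, a cerebellar mean of at least 0 on a log2 scale of counts scaled to library size (CPM), and a cerebellar mean at least 2 log2 units above that of each of the 3 other tissues. Of 32883 listed genes 15776 reached the mean count and 273 met the thresholds. The rule also leaves out 15 listed identifiers, 7 of which had met the thresholds, and 266 members remained.

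The cerebellum differs from the forebrain in its cells. Its granule neurons are small, packed densely and the most numerous neurons of the brain, and its Purkinje neurons carry the output of its cortex. The cerebellum also has its own kinds of glia and inhibitory neurons, so genes with much more RNA there than in forebrain tissue can belong to several cell types. The identifiers were not matched to gene names (0 of 32883), so the members could not be checked against markers of these cells, and no role is given for any member. In bulk tissue a larger number of cells of a type and more RNA per cell cannot be told apart.

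RNA was sequenced from 4 tissues (cerebellum, striatum, cortex and hippocampus) of each of 60 Long Evans rats. A rat was either WT or carried 1 copy of the Q130 knock-in (heterozygous), an expanded glutamine repeat placed in the animal's own gene. Animals were 2, 6 or 12 months old, and each tissue, genotype and age had 10 animals, 5 female and 5 male, which gave 240 libraries in 24 groups. Batch 1 held every library of 2 or 6 months and batch 2 every library of 12 months, so age and batch cannot be told apart between 6 and 12 months. At 12 months the genotypes shared 0 of 12 first parts of the animal identifier, and at 6 months 1 of 12, so a difference that follows that label cannot be told apart from genotype. A library held between 25.26 and 50.83 M counts. The median correlation with the other libraries of the labelled tissue was under 0.97 in 9 libraries, 8 of them from Q130 rats. In the cerebellum these were Q130 males 1 and 2 of 2 months, at 0.954 and 0.945, and none of 6 or 12 months. A male or female number names a library within its group and tissue.

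In the libraries that chose them, the members had a median cerebellar level of 4.55 log2 CPM (range 0.01 to 10.9), against 0.18 in striatum, 0.28 in cortex and -0.04 in hippocampus. The gap to the next tissue had a median of 3.16 log2 units and reached 8.82. It was at least 3 in 146 members, at least 4 in 83 and at least 6 in 26. These values follow from the rule and are given without a test. The 5 members nearest the threshold had gaps of 2.001, 2.004, 2.013, 2.015 and 2.017, and the 5 nearest genes outside had 1.969, 1.992, 1.994, 1.995 and 1.999, so the border cuts through a continuous range.

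No single forebrain tissue came next for most members. The next tissue was the cortex for 102, the striatum for 88 and the hippocampus for 76. The 3 forebrain means lay within 1 log2 unit of each other in 164 members and differed by more than 2 log2 units in 24. In 36 members the forebrain libraries held a mean of 3 counts or fewer, and no member was at 0 in all 30 of them.

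Levels between genes were compared on the deposited TPM scale (a share of transcripts, which corrects for length). In WT cerebellum of 2 months the members had a median of 21 TPM, against 18.2 for all genes that reached the mean count. A total of 261 members were at 1 TPM or more, 174 at 10 or more and 49 at 100 or more. ENSRNOG00000016275 was the most abundant member at 5879 TPM, followed by members at 1325 and 982 TPM. It alone held 21.6% of the summed TPM of the members, and the 10 most abundant held 51.5%. Relative length, taken as counts per TPM and scaled to the median of 15201 genes, had a median of 1.07 in the members with quartiles of 0.701 and 1.53, and quartiles of 0.657 and 1.53 in all those genes.

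Whether the cerebellar excess is also found in animals that did not choose the members was tested in 5 sets of 40 libraries. A gene was called when edgeR's quasi-likelihood test, with the animal as a block, gave a Benjamini-Hochberg adjusted p under 0.05 and a log2 fold change of at least 2 against each of the 3 other tissues. In WT rats 238 of 263 tested members were called at 6 months, where 1.90% of 16168 genes were called, and 242 of 263 at 12 months, where 1.94% of 16014 were called. In Q130 rats 250 of 261 were called at 2 months (1.87% of all 16202 genes), 244 of 265 at 6 months (1.88% of 16225) and 231 of 262 at 12 months (1.85% of 16040). The members missing from each test did not pass its filter on low counts. Over the tested members the median of the smallest fold change was 3.06, 3.22, 3.34, 3.18 and 3.08 log2 units in these sets, against -0.26 to -0.22 for all genes.

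Of the 266 members 211 were called in all 5 sets, 53 in some and 2 in none. The 2 called in none were ENSRNOG00000007636 and ENSRNOG00000004476, named after their values were seen. Both lay close to the threshold in the choosing libraries, at gaps of 2.06 and 2.05, and their fold changes in the 5 sets were 1.79 to 1.97 and 1.45 to 1.99 log2 units. They therefore stayed on the cerebellar side in every set but short of 2 units. Among the 146 members with a gap of 3 or more 132 were called in all 5 sets, and among the 120 with a smaller gap 79 were.

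The separation was also complete library by library for most members. The lowest cerebellar library lay above the highest library of any other tissue in 235 members for WT at 6 months, where this held for 11.9% of all tested genes. The counts were 242 for WT at 12 months (15.4% of genes), 249 for Q130 at 2 months (8.65%), 234 for Q130 at 6 months (12.8%) and 224 for Q130 at 12 months (10.3%).

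**Figure D1:**
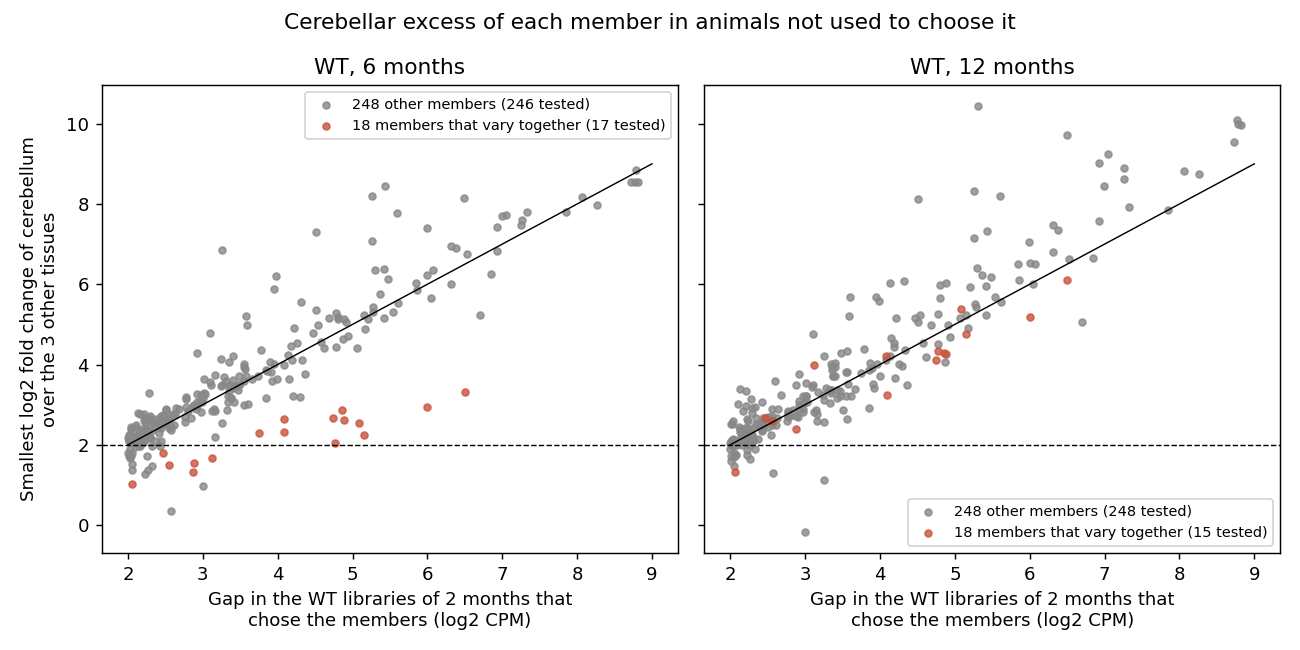
Cerebellar excess in WT rats of 6 months (left) and 12 months (right), each point 1 member. The x axis is the gap in the choosing libraries in log2 CPM with a prior count of 2, the y axis is the smallest fitted log2 fold change against the 3 other tissues, the solid line marks equal values and the dashed line the threshold of 2; the red members that vary together lie below the solid line at 6 months.

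The members did not vary alike. Within groups of cerebellar libraries the SD of log2 CPM had a median of 0.24 over the members, against 0.16 over 13825 genes at 0 log2 CPM or more. An SD of at least 0.7 was found in 24 members, 9.02% of them, against 1.24% of those genes. Clustering these 24 by the correlation of their deviations from the group means (average linkage, cut at a correlation of 0.5) placed 18 in a single group. This group was chosen after its values were seen and from the cerebellar libraries, so its behaviour there is a description. The remaining 248 members had a median SD of 0.22.

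The 248 members are those left when the 18 with a shared large spread were set aside. A narrower spread of the 248 in the cerebellum partly follows from that choice. Their summed level ran from 19278 to 25905 CPM over the 60 cerebellar libraries with a median of 23622 CPM. The medians were 2040.2 CPM in striatum, 2375 in cortex and 2107 in hippocampus, and no forebrain sum reached the lowest cerebellar one. These sums include the 40 libraries that chose the members, where the separation follows from the rule. The highest forebrain sums were 3181 CPM in the striatal library of Q130 male 3 and 3168 CPM in the cortical library of Q130 male 4, both of 12 months and both among the 9 libraries that stand apart. The lowest cerebellar sum was that of Q130 male 1 of 2 months, which also stands apart.

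The cerebellar sum of the 248 members drifted little with age in WT rats, and its median was lowest in Q130 rats of 12 months. Its lowest, median and highest values in WT were 23209, 24142 and 25905 CPM at 2 months, 22895, 23702 and 24479 at 6 months and 20663, 23333 and 24109.7 at 12 months. In Q130 rats they were 19278, 24232 and 25345 CPM at 2 months, 21351, 23369.5 and 24317 at 6 months and 20921, 21622 and 22338 at 12 months. At 12 months every Q130 library, at most 22338 CPM, lay below the WT median of 23333 CPM. Only WT female 1 at 20663 CPM and WT male 2 at 22254 CPM lay below the highest Q130 library. This difference in the sum was not tested.

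The 18 members that vary together behaved differently. In the cerebellum their summed level had a median of 2158 CPM, but it was 23.7 CPM in Q130 male 4, 31.4 in WT female 4, 45.6 in WT male 1 and 108 in Q130 female 2, all of 12 months. The other 56 cerebellar libraries ran from 776 to 4559 CPM. In each of these 4 libraries 17 or 18 of the 18 members were at least 4-fold below their cerebellar median, while the sum of the 248 others lay between 21308 and 23639 CPM. Each genotype held 2 of the 4 libraries. Compared with the 16 other libraries of 12 months, the 18 members were a median of 4.18 log2 units lower in the 4 and the 248 a median of 0.01 higher. Across all 13825 genes 46 were at least 2 log2 units lower in the 4 libraries, and 19 of those were members, 16 of them from the 18.

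ENSRNOG00000016275, the most abundant member, belongs to these 18. Its level had a lowest, median and highest value of 17.8, 1773 and 2661 CPM in WT and 9.99, 1635 and 2672 CPM in Q130 cerebellum at 12 months, against 1383, 1948 and 2206 CPM in WT at 2 months. It set most of the sum, with a mean of 5471 TPM over the 60 cerebellar libraries against at most 36.6 TPM for each of the 17 others. The sum without it gave the same picture, with a median of 273 CPM over the cerebellar libraries and 13.5 to 21.4 CPM in the 4 low ones.

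The same 18 members were high in some forebrain libraries, which had no part in grouping them. Their sum had a median of 22.1 CPM in cortex, 28.6 in striatum and 14.8 in hippocampus. In the cortex at 6 months it was 2055 CPM in Q130 male 2, 2032 in WT female 2 and 1831 in Q130 female 2, within the range of the cerebellum. In these 3 libraries 17, 18 and 17 of the 18 members were at least 4-fold above their cortical median, while the sums of the 248 others were 2355, 2539.7 and 2452 CPM, close to the cortical median. WT male 3 at 979 CPM and WT female 4 at 845 CPM were the other cortical libraries of 6 months above the lowest of the 56 cerebellar ones, 5 in all. No striatal or hippocampal library was, although Q130 female 1 of 6 months reached 489 CPM in striatum and WT male 4 of 2 months 769 CPM in hippocampus. Sums above 100 CPM were found in 11 cortical, 5 striatal and 2 hippocampal libraries, 12 of these 18 from rats of 6 months.

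The cerebellar excess of the 18 members differed between the sets of libraries. In the choosing libraries their gap had a median of 4.09 log2 units, and on the same scale it was 2.67 in WT at 6 months, 3.36 in WT at 12 months, and 4.24, 3.61 and 3.37 in Q130 at 2, 6 and 12 months. The 248 others stayed between 3.01 and 3.16. A total of 18 of the 18 had their lowest cerebellar library above every forebrain library in Q130 rats at 2 months, and 0, 1, 1 and 1 did in WT at 6 and 12 months and Q130 at 6 and 12 months. Over all tested genes this held for 8.65%, 11.9%, 15.4%, 12.8% and 10.3% in the same order. In all 5 tests of tissue 8 of the 18 were called, against 203 of the 248, with members that did not pass a filter counted as not called. The 18 were chosen for a large spread over these cerebellar libraries, so fewer calls and more overlap partly follow from that choice. What the 18 genes share beyond this was not determined, and the part of dissection or of the cells sampled was not tested.

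**Figure D2:**
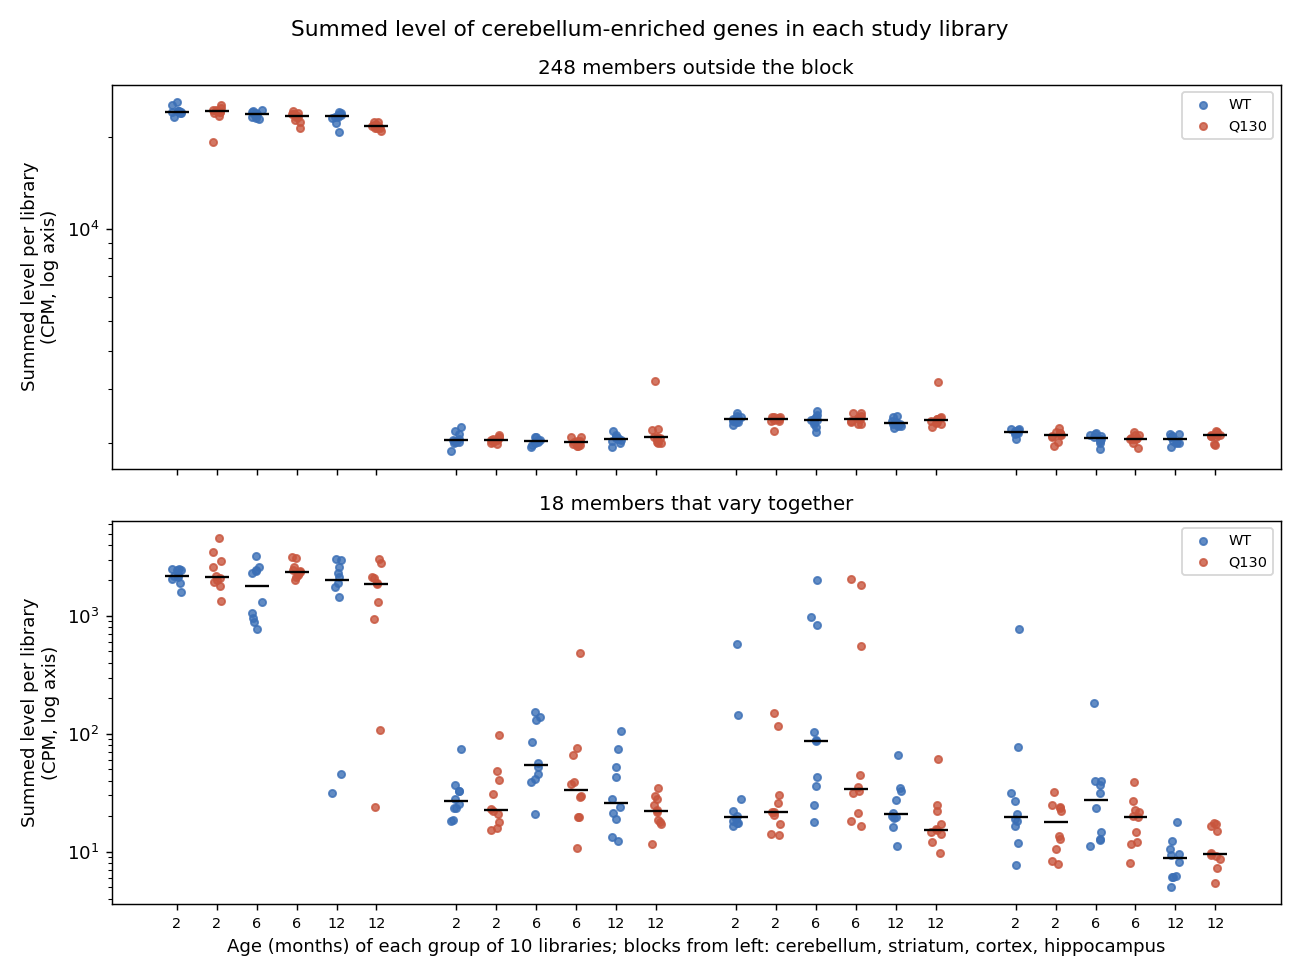
Summed level of the 248 members (top) and of the 18 that vary together (bottom) in each of 240 libraries, in CPM on log axes. Each point is 1 library, blue for WT and red for Q130, and lines are group medians; 4 cerebellar libraries of 12 months fall to 23.7 to 108 CPM in the lower panel and are not set apart in the upper one.

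A further 6 members had an SD of at least 0.7 without joining the 18. ENSRNOG00000007219, named after its values were seen, had the largest SD at 3.08 log2 units. It was under 1 CPM in 11 cerebellar libraries and at 20 CPM or more in 23, with a highest value of 111 CPM, while no forebrain library exceeded 0.401 CPM. Its lowest, median and highest values were 0.0411, 3.05 and 43.2 CPM in WT at 2 months and 6.42, 22.6 and 41.7 CPM in WT at 12 months. In Q130 rats the medians were 12.5, 16.9 and 20.3 CPM at 2, 6 and 12 months, and each of these groups held libraries listed at or near 0. It was not called by genotype at 6 or 12 months (log2 fold changes of 0.67 ± 0.98 and -0.08 ± 0.69, SE; edgeR adjusted p = 0.81 and 0.966).

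ENSRNOG00000036701 was at 20 CPM or more in 56 cerebellar libraries but was listed at or near 0 in 3, those of Q130 males 1 and 2 of 2 months and Q130 female 5 of 6 months. The first pair are the cerebellar libraries that stand apart. In other tissues it was at 10 CPM or more in 29 cortical, 11 hippocampal and 5 striatal libraries and reached 73, 41.5 and 169 CPM there. The value of 169 CPM came from the striatal library of Q130 male 3 of 12 months. Its smallest fitted log2 fold change against the 3 other tissues was above 0 in every set but varied widely. It was 6.86 and 1.11 in WT at 6 and 12 months and 3.65, 3.77 and 0.96 in Q130 rats at 2, 6 and 12 months. In both genotypes it was under the threshold of 2 at 12 months. The deposited counts are estimates that can divide reads between similar genes, and whether this affects either gene was not tested.

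**Figure D3:**
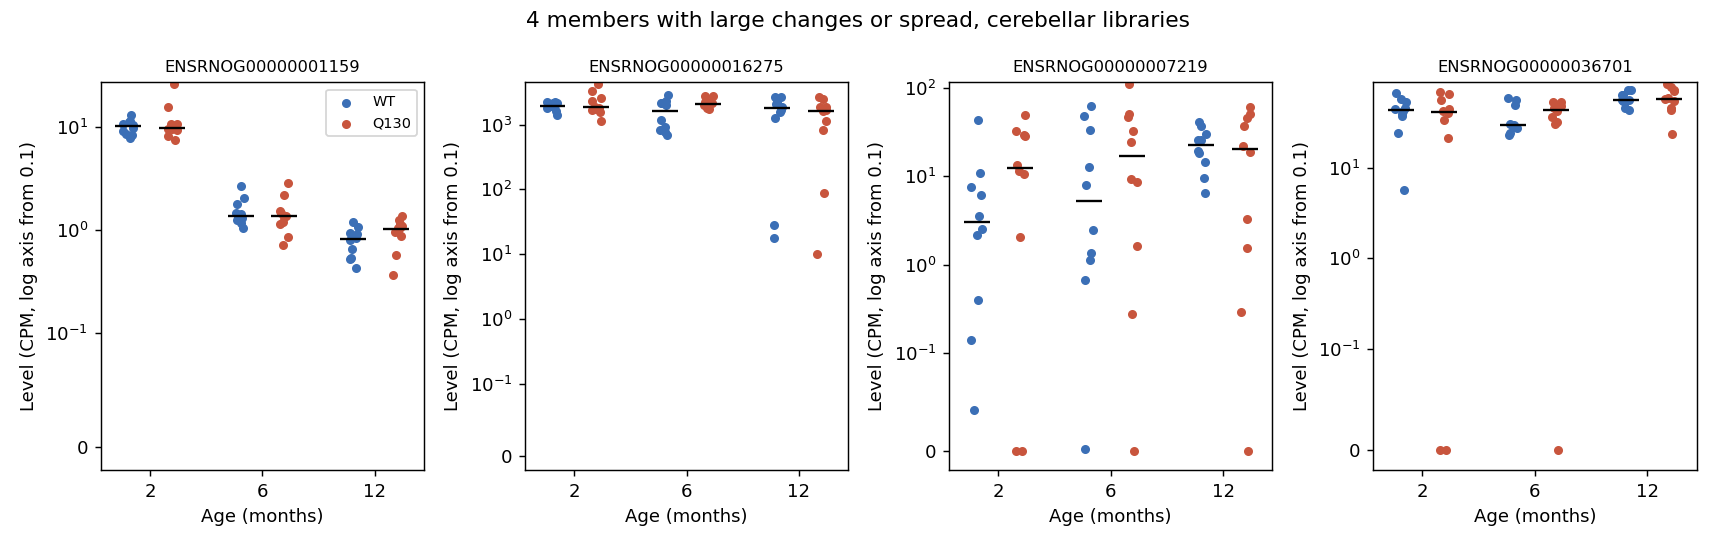
Levels of 4 members in the 60 cerebellar libraries by age and genotype, in CPM on axes that are linear below 0.1 and logarithmic above. Points are libraries and lines are medians of 10. ENSRNOG00000001159 drops between 2 and 6 months. ENSRNOG00000007219 is spread widely within groups, and ENSRNOG00000016275 and ENSRNOG00000036701 each have a few libraries far below their group.

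Whether the members differ between genotypes was asked in the cerebellum at each age, with sex as a covariate and 10 libraries per genotype. At 12 months 17 members were lower and 2 higher in Q130 rats, 19 of 266, where 0.705% of 15177 genes were called lower and 0.863% higher. The 19 changes were small, from -0.43 to 0.39 log2 units with a median size of 0.28, and none passed 1.5-fold. None of the 18 members that vary together was called. They were chosen for a large spread in these same libraries, which makes a call less likely. Over all 266 members 158 estimates were lower and 108 higher, with a median of -0.03 against 0.00 for all genes.

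The count of members called at 12 months depended on which libraries were included. The count fell to between 4 and 12 when Q130 female 1 or 3, Q130 male 1, 2 or 3, WT female 2, 4 or 5, or WT male 1, 4 or 5 was left out, and rose to 32 without WT female 1. Without the 4 libraries that were low in the 18 members no member was called by edgeR, and 0.151% of all genes were called. That comparison had 16 libraries in place of 20. In it 58 members and 2293 of 15188 genes had an unadjusted p under 0.05, against 67 members and 2899 of 15177 genes in all libraries.

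At 6 months 3 members were called and all were lower in Q130 rats, where 0.242% of 15305 genes were called lower and 0.0457% higher. Here 138 estimates were lower and 128 higher, with a median of -0.01. An unadjusted p under 0.05 was found in 61 members and in 2120 of the 15305 genes. The 18 members that vary together leaned in opposite directions at the 2 ages, with 18 of 18 estimates higher in Q130 rats at 6 months (median 0.51) and 17 of 18 lower at 12 months (median -0.22). They were grouped because their levels move together, so these are not 18 separate observations. None of the 18 was called at either age, where the large spread they were chosen for makes a call less likely. Only without Q130 female 4, Q130 male 1 or WT female 4 did the count of 3 members called at 6 months stay within 1.5-fold. It was 0 or 1 without any of the other libraries except WT male 5, Q130 female 1 and WT female 5, which gave 17, 8 and 6. The 17 members called lower at 12 months all had lower estimates at 6 months, in other animals, with a median of -0.14 at 6 and -0.28 at 12 months. Both members called higher at 12 months had higher estimates at 6 months. At 2 months, where the WT libraries also chose the members, 161 estimates were lower and 105 higher with a median of -0.04, and these are given as a description.

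**Figure D4:**
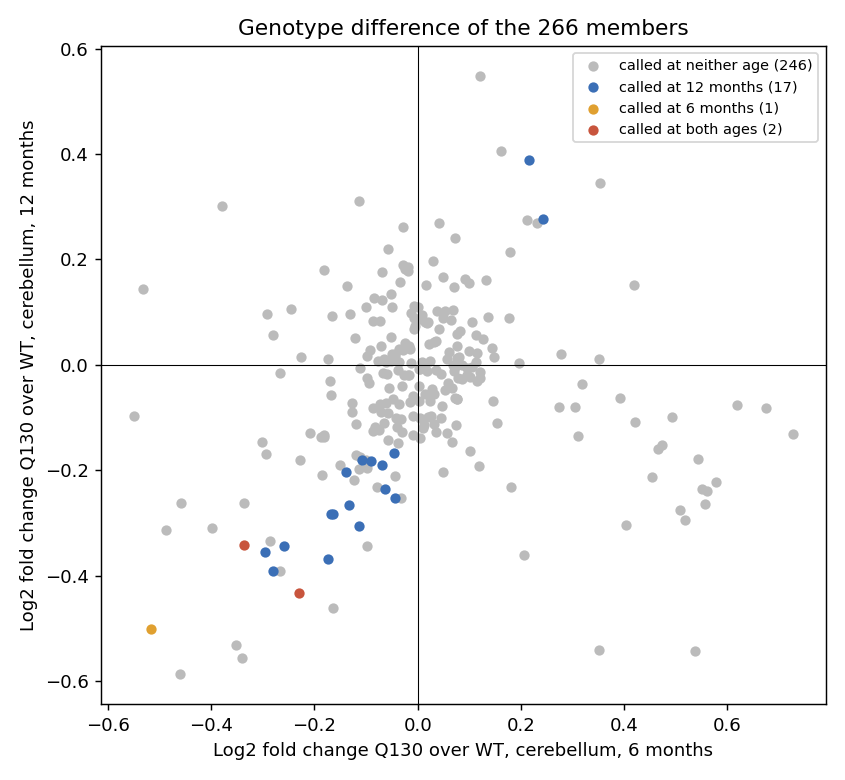
Log2 fold change of Q130 over WT in the cerebellum at 6 months (x axis) and 12 months (y axis) for the 266 members, each point 1 member and coloured by the ages at which it was called. The called members lie within 0.52 log2 units of 0 on both axes, inside the spread of those not called.

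ENSRNOG00000000487 was lower in Q130 rats at both ages. Its lowest, median and highest values were 317, 359 and 455 CPM in WT and 306, 369 and 441 CPM in Q130 rats at 2 months. At 6 months they were 227, 245 and 287 CPM in WT and 195, 219 and 235 CPM in Q130 rats. At 12 months they were 149.6, 239 and 272 CPM in WT and 123, 169 and 196 CPM in Q130 rats. The genotypes covered the same range at 2 months, while at 6 and 12 months 10 of 10 Q130 libraries lay below the WT median, with the ranges still overlapping. The log2 fold change was -0.23 ± 0.04 at 6 months and -0.43 ± 0.09 at 12 months (SE, edgeR adjusted p = 0.0273 and 0.0267). The call at 6 months was kept by 5 of 6 other analyses, with adjusted p up to 0.197. Leaving out single libraries changed the call in 8 of 20 fits at 6 months and in 4 of 20 at 12 months. Without the 4 libraries low in the 18 members the adjusted p at 12 months was 0.0548.

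ENSRNOG00000007905 was also lower at both ages. At 6 months its lowest, median and highest values were 185, 238 and 281 CPM in WT and 147, 185 and 218 CPM in Q130 rats. At 12 months they were 164, 217 and 256 CPM in WT and 134, 170.5 and 197 CPM in Q130 rats. Again 10 of 10 Q130 libraries lay below the WT median at each age, and 5 and 3 of them below the lowest WT library. The log2 fold change was -0.34 ± 0.07 at both ages (SE, edgeR adjusted p = 0.0493 at 6 and 0.0267 at 12 months). The call at 6 months lay at the threshold and was kept by 1 of 6 other analyses, with adjusted p up to 0.151. Leaving out single libraries changed the call in 16 of 20 fits at 6 months and in 3 of 20 at 12 months. The call at 12 months was lost with 1 fit over the 60 cerebellar libraries (adjusted p = 0.072) and without the 4 low libraries (0.0574), and kept by 5 other analyses.

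ENSRNOG00000006395, the remaining member called at 6 months and named after its values were seen, is far less abundant. At 6 months the lowest, median and highest values were 2.46, 3.5 and 4.48 CPM in WT and 1.57, 2.4 and 2.93 CPM in Q130 rats. The log2 fold change was -0.52 ± 0.11 (SE, edgeR adjusted p = 0.0493), and at 12 months it was -0.50 ± 0.13 (adjusted p = 0.0543), just short of a call.

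ENSRNOG00000054375 was higher in Q130 rats at 12 months. The lowest, median and highest levels were 7.04, 9.21 and 11.3 CPM in WT and 10.1, 11.7 and 13.2 CPM in Q130 rats, and 6 of 10 Q130 libraries lay above the highest WT library. The log2 fold change was 0.39 ± 0.08 (SE, edgeR adjusted p = 0.0232), against 0.22 ± 0.08 at 6 months (adjusted p = 0.233). The call at 12 months was lost without the 4 libraries low in the 18 members (adjusted p = 0.0987) and kept by the 6 other analyses. It changed in 1 of 20 fits that each left out a single library. Over the 60 libraries of each forebrain tissue its median was at most 0.84 CPM.

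ENSRNOG00000028238 was the other member higher at 12 months. Levels ran over a lowest, median and highest value of 20.5, 23.9 and 26.8 CPM in WT and 25.7, 27.8 and 35.8 CPM in Q130 rats, with 7 of 10 Q130 libraries above the highest WT library. The log2 fold change was 0.28 ± 0.06 (SE, edgeR adjusted p = 0.0212), against 0.24 ± 0.07 at 6 months (adjusted p = 0.118). The call at 12 months was kept by 5 of 7 other analyses and lost with 1 fit over the 60 cerebellar libraries (adjusted p = 0.216) and without the 4 libraries low in the 18 members (0.0607). It changed in 0 of 20 fits that each left out a single library. At 2 months the genotypes overlapped, and the highest value, 51.4 CPM, came from Q130 male 2, a library that stands apart.

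**Figure D5:**
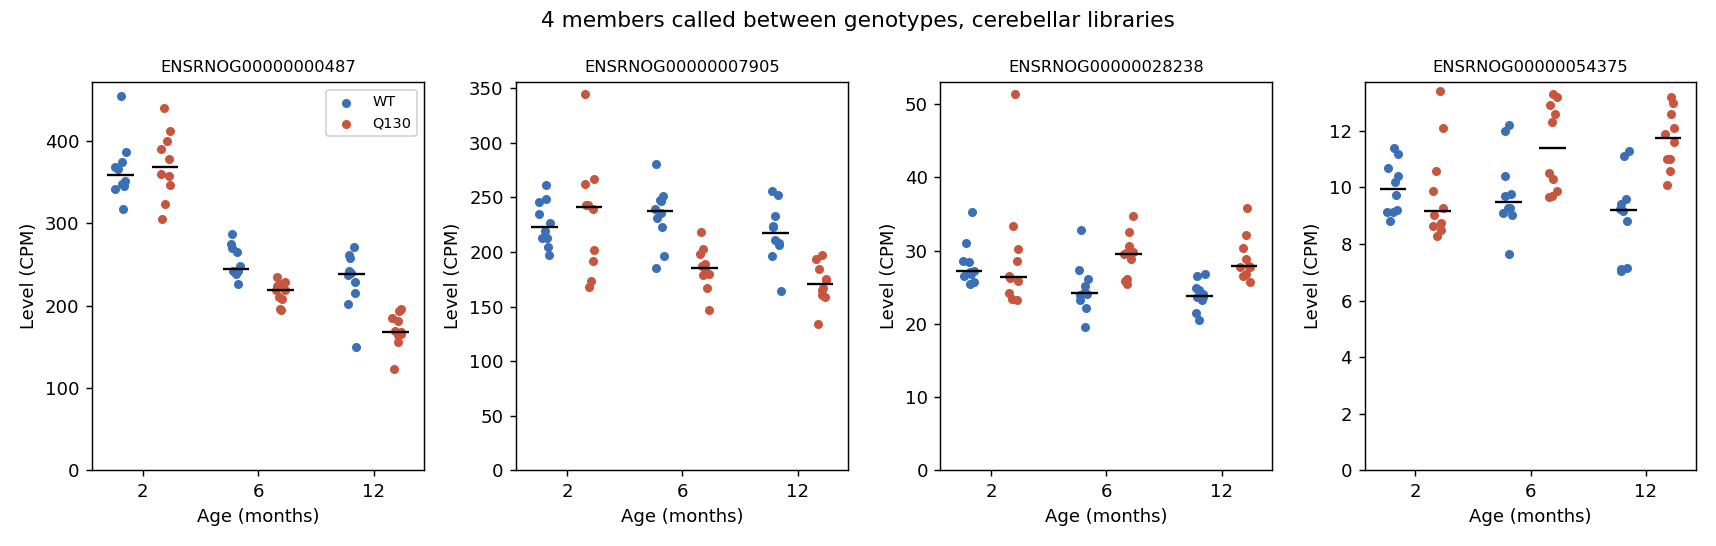
Levels in CPM of the 4 members described by genotype in the 60 cerebellar libraries, by age in months, with points for libraries and lines for medians of 10. At 12 months the Q130 points sit low for ENSRNOG00000000487 and ENSRNOG00000007905 and high for ENSRNOG00000028238 and ENSRNOG00000054375, with overlap in each panel.

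Whether the genotype difference changed from 6 to 12 months was tested over 40 cerebellar libraries. By edgeR 0 members and 0% of 15623 genes were called, and the smallest adjusted p of a member was 0.649. An unadjusted p under 0.05 was found in 26 members and in 1136 of the 15623 genes. limma-voom and DESeq2 also called 0 members. The members described above were therefore not shown to differ in their response between these ages.

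Age was tested between 2 and 6 months in Q130 rats, which lie in 1 batch and had no part in choosing the members. A total of 7 members rose and 17 fell, 24 of 266, where 2.54% of 15369 genes rose and 4.17% fell. The median size of the called changes was 0.39 log2 units, and 6 of the 24 passed 1.5-fold. Without Q130 males 1 and 2 of 2 months, which stand apart, 18 members rose and 47 fell, where 7.45% of genes rose and 7.98% fell. The 17 members that fell had lower estimates in WT rats too, and the 7 that rose had higher ones, but the WT libraries of 2 months chose the members, so this is a description.

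ENSRNOG00000001159 fell most. In Q130 cerebellum the lowest, median and highest values were 7.44, 9.79 and 26 CPM at 2 months and 0.724, 1.36 and 2.9 CPM at 6 months. The ages did not overlap, and the log2 fold change was -3.00 ± 0.19 (SE, edgeR adjusted p = 1.26e-08), or -2.78 ± 0.16 without the libraries that stand apart. The WT levels were 7.87, 10.2 and 13 CPM at 2 months and 1.04, 1.37 and 2.69 CPM at 6 months, and at 12 months the medians were 0.819 CPM in WT and 1.03 CPM in Q130 rats. It was at or under 0.21 CPM in every forebrain library. It was still called cerebellum-enriched in all 5 sets, so its cerebellar excess persisted at the lower level.

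Among the other members, ENSRNOG00000008121 fell from a median of 2.51 to 1.11 CPM (-0.99 ± 0.15 log2 units, SE, edgeR adjusted p = 0.000215). ENSRNOG00000011672 rose from a median of 1.5 CPM, range 0.995 to 1.91, to 2.66 CPM, range 2.15 to 2.78, that is by 0.82 ± 0.11 log2 units (SE, edgeR adjusted p = 0.000101). ENSRNOG00000000487 fell as well, from a median of 369 to 219 CPM (-0.77 ± 0.06, SE, edgeR adjusted p = 6.4e-08), so its level dropped with age as well as being lower in Q130 rats at 6 months. ENSRNOG00000001159, ENSRNOG00000008121 and ENSRNOG00000011672 were named after their values were seen. Between 6 and 12 months, where the batch changes too, the median estimate over the members was -0.07 in Q130 and -0.02 in WT rats.

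Sex, tested within the genotype fits, touched few members. At 6 months 1 was called, where 0.203% of genes were lower and 0.137% higher in males, and at 12 months 2 were, where 0.191% were lower and 0.231% higher. ENSRNOG00000012303 had a lowest, median and highest level of 3.47, 4.16 and 4.73 CPM in 10 females and 2.53, 3.19 and 3.75 CPM in 10 males at 6 months (-0.40 ± 0.08 log2 units, SE, edgeR adjusted p = 0.0189). It was not called at 12 months (-0.16 ± 0.10). At 12 months ENSRNOG00000001627 was at 19.6, 22.1 and 26 CPM in females and 24.4, 26.8 and 32.9 CPM in males (0.30 ± 0.05, SE, edgeR adjusted p = 0.00163), and its estimate at 6 months was 0.31 ± 0.11 (adjusted p = 0.443). ENSRNOG00000008153 was at 9.87, 10.7 and 11.8 CPM in females and 11.5, 12.4 and 13.8 CPM in males at 12 months (0.23 ± 0.05, SE, edgeR adjusted p = 0.0195), with an estimate of -0.12 ± 0.07 at 6 months. The ranges of the sexes overlapped in each of these. The 3 were named after their values were seen.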

How the data were processed

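RNA came from frozen tissue through a Qiagen kit and Illumina library preparation, per the labels' protocols. Neither the aligner nor the counter or genome build is given in the sources used here. In the deposited files the authors give expected counts per gene, which were rounded before testing, and a second table on the TPM scale (per the file's values each column sums to that of TPM). For 12 striatal libraries the table holds a pair of columns, and the 1 written with dots was taken from its name alone as the repeat library and not used (12 columns).

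CPM values used TMM library sizes over 240 libraries, and log2 CPM a prior count of 2. Tests used edgeR 4.0.16 under R 4.3.3 (filterByExpr by the compared factor, robust quasi-likelihood) on all genes, with Benjamini-Hochberg adjustment over all of them and calls at an adjusted p under 0.05. Alternatives used limma 3.58.1 and DESeq2 1.42.0. Replicates are separate animals. Cerebellar libraries of a group differed by at least 2.84 times counting noise. On simulated counts for the genotype comparison at 12 months (15092 genes), the test recovered 94% of genes changed by 0.5 log2 units and 100% of those changed by 1. The changed genes all had a mean of at least 100 counts, and 9 unchanged genes were called. Libraries that deviate from their group in many genes were not simulated, so recovery in the real data can be lower.

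The members and gene lists were chosen with earlier results of these data known. At most 4 members were to be given by identifier. The 4 taken were the 2 called lower in Q130 rats at both 6 and 12 months and the 2 called higher at 12 months. Those calls therefore selected them. Others named were chosen after their values were seen. The fixed lists and promoter motifs need gene names and were not tested.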

Additional observations from a re-analysis of the deposited data

Results flagged for a closer look

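Among 90 sets of 10 libraries looked at, 17 held a library whose gap to its nearest neighbour took an unusually large part of the range (Dixon's ratio). Chance alone would flag about 1 in 20 of the sets if they were independent and normally distributed. The sets share libraries and some are skewed, so that rate need not hold here. For the 18 members that vary together, single high libraries were Q130 female 1 in striatum at 6 months (489 CPM, next 75), WT male 4 in hippocampus at 2 months (769 CPM, next 77.4), WT male 4 in hippocampus at 6 months (181 CPM, next 40.1), WT female 4 in striatum at 2 months (73.6 CPM, next 36.7) and Q130 male 4 in cortex at 12 months (61.2 CPM, next 25.1). In this cortical library, which stands apart, 5 of the 18 were at least 4-fold above their cortical median and 4 were at least 4-fold below it.

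For the 248 other members, high sums were found in Q130 male 3 in striatum (3181 CPM, next 2224) and Q130 male 4 in cortex (3168 CPM, next 2417), both at 12 months and both in libraries that stand apart. Low sums were found in Q130 male 1 in cerebellum at 2 months (19278 CPM, next 23305), which also stands apart, and in WT female 1 in cerebellum at 12 months (20663 CPM, next 22254). Smaller gaps were those of Q130 male 4 in cortex at 2 months (2175 CPM, next 2345) and WT male 1 in hippocampus at 2 months (2049 CPM, next 2132).

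Of single members, ENSRNOG00000000487 was low at 12 months in female 1 of both genotypes, at 123 CPM in Q130 (next 156) and 149.6 CPM in WT (next 202). ENSRNOG00000028238 was high at 51.4 CPM in Q130 male 2 of 2 months (next 33.3), a library that stands apart. ENSRNOG00000011672 was high in WT female 5 of 2 months (4.13 CPM, next 2.1) and WT female 2 of 6 months (3.87 CPM, next 2.27) and low in WT female 4 of 12 months (1.56 CPM, next 2.14).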

How the results depend on the processing

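Membership was 420 genes at a threshold of 1.5 log2 units and 146 at 3, and 263 to 284 under the 6 other settings tried. Of the 284 genes that met the rule in WT libraries of 6 months 238 were members, as were 238 of 284 from 12 months. The 5 counts of members called between tissues stayed within 1.5-fold in all 31 alternatives, from 217 to 259. Leaving out the animal as replicate block gave 228 and 241 in WT at 6 and 12 months and 251, 231 and 217 in Q130 rats at 2, 6 and 12 months.

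The genotype calls depended on the analysis. At 6 months the count of 3 became 1 with limma-voom, 21 with DESeq2, 1 with no filter on low counts, 1 with a filter from the design matrix and 0 with 1 fit over the 60 cerebellar libraries, and 0 to 17 when single libraries were left out. At 12 months the count of 19 became 35 with DESeq2, 6 with 1 fit over the 60 libraries and 0 without the 4 libraries low in the 18 members (chosen after seeing the data), and 4 to 32 when single libraries were left out. It was 20 with limma-voom and 13 with no filter. The causes were not tested. Both genotypes use the same replicate numbers, and nothing in the labels pairs the animals. Same-numbered libraries had correlated deviations of 0.08 to 0.36 at 6 months and -0.03 to 0.27 at 12 months, and 5 and 2 of 10 WT libraries correlated best with their own number. With the replicate block the counts were 1 at 6 months and 15 at 12 months, and 18 for age in Q130 rats.

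The count of 24 by age in Q130 rats became 37 with DESeq2, 65 without the libraries that stand apart and 57 with 1 fit over the 60 libraries. By sex DESeq2 called 5 members at 6 months and 5 at 12 months, and 1 fit over the 60 libraries called 0 at 12 months. No interaction call arose in the 5 alternatives tried. Recovery of changes under 0.5 log2 units was not simulated, and the called genotype differences were smaller than that apart from 1 member at 6 months.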
